A study of Homo sapiens with 6 samples.

Results

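The matrix metalloproteinases (MMPs) and tissue inhibitors of metalloproteinases (TIMPs) described here are 10 named genes, 8 MMP genes and 2 TIMP genes, of 18404 genes tested. The members were given by name, and each was read from the probe set that carries its symbol alone; all 10 had exactly 1 such probe set. RNA came from HaCaT, a spontaneously immortalised human keratinocyte line, in 2 groups of 3 samples: shTP63, transduced by lentivirus with a short hairpin RNA against TP63, and shControl, transduced with a control vector. In both groups RNA was collected 72 hours after knockdown, and the labels name several serum-containing media without saying which was used. TP63 encodes p63, a transcription factor of basal epithelial cells, and per its title the series concerns the joint action of p63 and ACTL6A on the Hippo-YAP pathway in squamous carcinomas. The labels number the replicates without stating whether each was its own culture; the p-values therefore rest on a spread between samples that may be technical.

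MMPs are zinc-dependent endopeptidases that are made as inactive precursors and, once cleaved, digest collagens, laminins, fibronectin and cell surface proteins. TIMPs bind their active sites and block them, and TIMP2 has a further role as the adaptor through which MMP14, at the cell membrane, activates the precursor of MMP2. In skin these enzymes are best known from wound edges, where migrating keratinocytes make collagenase and stromelysins, and from squamous carcinoma.

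Values are log2 intensities, and each difference is the shTP63 mean less the shControl mean in log2 units. A gene passed when its adjusted p in limma, over all 18404 genes, lay under 0.05. In shTP63, 9 of the 10 genes rose, 0 fell and MMP3 did not pass. The 10 genes were chosen with earlier results of these data known, so their count is not an independent result. Of all genes tested, 16.4% rose and 25.1% fell (3015 and 4619 genes); the split was 1782 and 7932 with every array centred on its median and 3705 and 3667 after cyclic loess. At an unadjusted p under 0.05 the counts for the 10 genes were again 9 and 0. MMP7, MMP13, MMP9 and MMP2 rose at least 2-fold, which 0.446% of all genes did. The median difference of the 10 genes was 0.70, against -0.01 for all genes tested. In the same 9 genes the 3 shTP63 values all lay above the 3 shControl values, and the groups did not overlap in 51.4% of all genes. The arrays are of whole cultures, so a change in the number of cells that make a transcript and a change in its amount per cell cannot be told apart.

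Promoter windows of 4 members were found in the RefSeq table for GRCh38.p14, each running from 250 bases before the annotated start of the gene to 50 bases after it. MMP1, MMP2, MMP3, MMP9, MMP13 and TIMP2 are named here without a window. The windows of MMP7 (chr11:102530698-102530997, minus strand), MMP10 (chr11:102780579-102780878, minus strand) and TIMP1 (chrX:47582186-47582485, plus strand) are shown because they set a pair of proteinase promoters from the same gene cluster, MMP7 with the largest rise of the members and MMP10 with a rise of uncertain size from dim control values, beside an inhibitor's promoter. Capitals mark every match to the AP-1 site TGANTCA, the TATA box TATAAA and the PEA3 site AGGAAG, searched on both strands with no overlap between matches of different motifs.
MMP7: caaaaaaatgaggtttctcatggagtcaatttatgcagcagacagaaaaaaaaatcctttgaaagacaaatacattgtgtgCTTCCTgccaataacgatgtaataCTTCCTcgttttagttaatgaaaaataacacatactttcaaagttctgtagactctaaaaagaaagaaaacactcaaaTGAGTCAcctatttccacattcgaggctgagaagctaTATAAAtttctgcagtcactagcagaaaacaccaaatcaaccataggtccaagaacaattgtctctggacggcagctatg
MMP10: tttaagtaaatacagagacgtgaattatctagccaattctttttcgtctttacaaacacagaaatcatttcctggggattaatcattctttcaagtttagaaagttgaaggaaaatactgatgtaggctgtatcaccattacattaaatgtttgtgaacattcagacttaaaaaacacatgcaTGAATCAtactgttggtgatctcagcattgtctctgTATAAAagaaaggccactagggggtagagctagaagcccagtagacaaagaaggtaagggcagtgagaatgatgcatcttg
TIMP1: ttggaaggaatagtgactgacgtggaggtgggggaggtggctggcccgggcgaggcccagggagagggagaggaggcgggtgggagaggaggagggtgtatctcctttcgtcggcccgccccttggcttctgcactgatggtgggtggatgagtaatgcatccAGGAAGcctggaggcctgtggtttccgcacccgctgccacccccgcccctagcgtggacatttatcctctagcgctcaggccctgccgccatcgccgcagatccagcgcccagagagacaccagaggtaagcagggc
MMP7 and MMP10 each held 1 AP-1 match, as TGAGTCA in MMP7 and TGAATCA in MMP10, and in both its first base lay 67 bases before the start. Each also held a TATA box, 30 bases before the start in MMP7 and 31 in MMP10. MMP7 held a pair of PEA3 matches on the opposite strand, whose first printed bases lie 169 and 145 bases before the start, and TIMP1 held 1 match on the printed strand 87 bases before it. The MMP14 window (chr14:22836335-22836634, plus strand) held none of the 3 motifs. No member's window held the TEAD site GGAATG or the NF-kappa-B site. Of 27305 windows, the first listed for each gene, 7.76% held the AP-1 site, 11.95% the TATA box, 33.7% the PEA3 site, 14.05% the TEAD site and 5.72% the NF-kappa-B site. The G and C content was 35.7% in the MMP7 window, 36.3% in MMP10, 55.0% in MMP14 and 65.0% in TIMP1, with a median of 58.3% over all windows. These matches describe the letters of the windows; binding was not measured here.

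**Figure D1:**
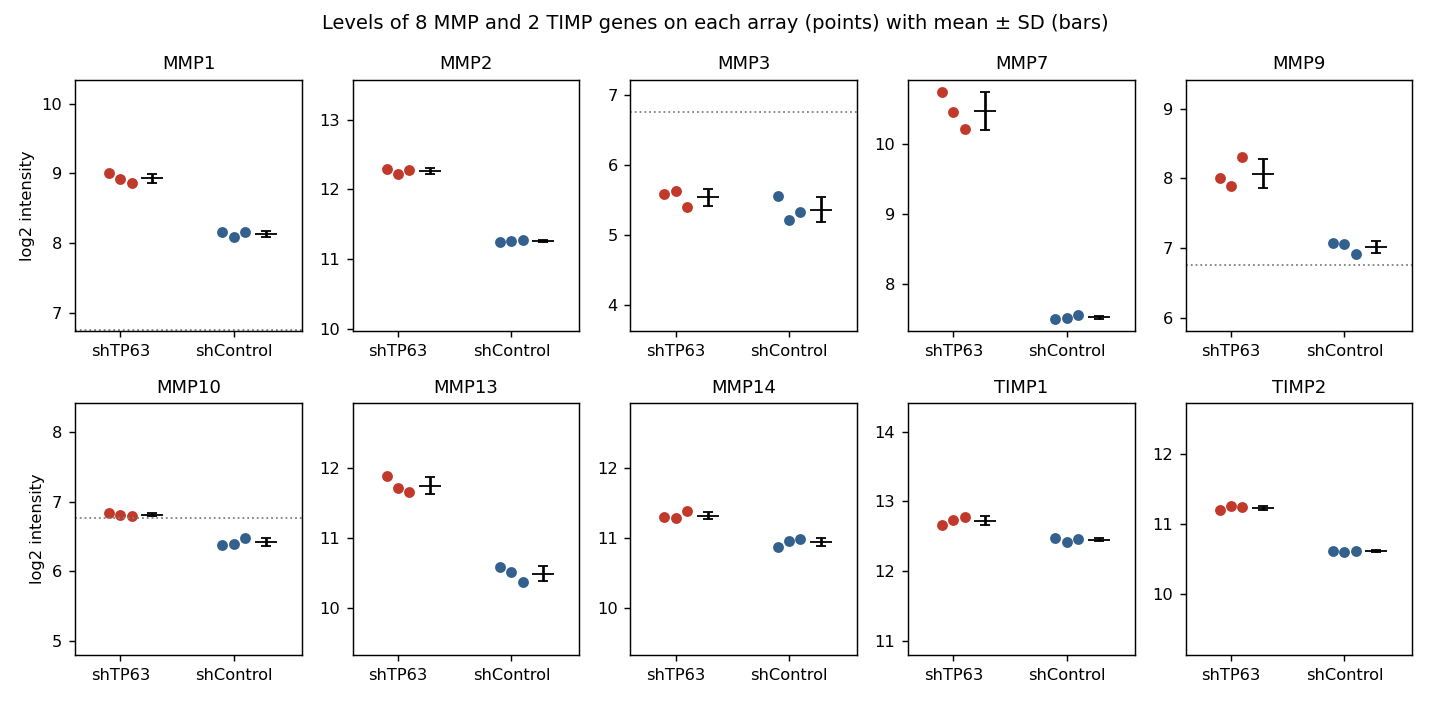
Log2 intensity of each of the 10 genes on each array, with the 3 shTP63 arrays (red points) left of the 3 shControl arrays (blue points) and the mean ± SD of each group (black, n = 3). Every panel spans the same number of log2 units, and the dotted line, where it falls in the panel, is the 95th percentile of olfactory receptor genes at 6.76. MMP7 has the widest gap between the groups, and MMP3 is the gene whose groups overlap.

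Among the secreted proteinases without a hemopexin domain, MMP7 (matrilysin, probe set 7951217), an epithelial enzyme that sheds E-cadherin, syndecan-1 and other surface proteins, had the largest difference of the 10 genes. Its log2 intensity was 10.74, 10.45 and 10.21 in shTP63, against 7.49, 7.50 and 7.54 in shControl. All 3 shTP63 arrays stood far above the control arrays, and they also differed more from each other: they spanned 0.53, whereas the shControl arrays spanned 0.051. The mean was 10.47 ± 0.267 in shTP63 and 7.51 ± 0.0271 in shControl (SD, n = 3 each). MMP7 rose by 2.95 (SE 0.111, limma adjusted p = 5.42e-07), or 7.75-fold, with a 95% interval of 2.70 to 3.21, and ranked 3 of 18404 genes by the size of its rise. The lower end of that interval lay above the upper end of every other member's, the next being MMP13 at 1.43. Without shTP63 replicate 1, the highest array, the rise was 2.82.

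The 2 secreted collagenases among the members, which cut the triple helix of fibrillar collagens, both rose. MMP13 (collagenase 3, probe set 7951309) had values of 11.89, 11.72 and 11.66 in shTP63, against 10.59, 10.52 and 10.38 in shControl. Its groups were separated by 1.07, several times the range within either of them (0.23 in shTP63 and 0.22 in shControl). MMP13 rose by 1.26 (SE 0.0740, limma adjusted p = 4.82e-06), or 2.39-fold. MMP1 (interstitial collagenase, probe set 7951271), which migrating keratinocytes make at wound edges, had 9.0, 8.92 and 8.86 in shTP63, against 8.16, 8.08 and 8.17 in shControl. The nearest shTP63 and shControl arrays lay 0.697 apart. MMP1 rose by 0.79 (SE 0.0506, limma adjusted p = 7.38e-06), or 1.73-fold. The 95% intervals of the differences were 1.09 to 1.43 for MMP13 and 0.68 to 0.91 for MMP1, and do not overlap.

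Both gelatinases, which digest denatured collagen and the type IV collagen of basement membranes, rose. MMP2 (gelatinase A, probe set 7995681) had 12.30, 12.22 and 12.27 in shTP63, against 11.24, 11.26 and 11.28 in shControl. The 3 arrays of each group lay close together, and MMP2 rose by 1.00 (SE 0.0424, limma adjusted p = 8.85e-07), or 2.01-fold. MMP9 (gelatinase B, probe set 8063115) had 8.01, 7.89 and 8.31 in shTP63, against 7.08, 7.06 and 6.92 in shControl. The shTP63 arrays were more spread, with replicate 3 the highest, and all 3 lay above the controls. MMP9 rose by 1.05 (SE 0.0983, limma adjusted p = 4.92e-05), or 2.07-fold, and by 0.93 without shTP63 replicate 3. Its shControl values lay not far above 6.76, the 95th percentile of olfactory receptor genes. The size of the MMP9 rise is therefore less certain than that of MMP2. The 95% intervals of 0.91 to 1.10 for MMP2 and 0.83 to 1.27 for MMP9 overlap.

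The stromelysins, which digest proteoglycans, laminin and fibronectin and activate other MMP precursors, were measured close to or under background. MMP10 (stromelysin 2, probe set 7951259) had 6.83, 6.80 and 6.79 in shTP63, against 6.38, 6.39 and 6.48 in shControl. The groups did not overlap, and MMP10 rose by 0.39 (SE 0.0458, limma adjusted p = 0.000160), or 1.31-fold. As a measure of background, 340 olfactory receptor genes, taken here as mostly silent, were ranked by mean level, and their 95th percentile lay at 6.76. All 3 MMP10 values in shTP63 were just above it and all 3 in shControl below it, so the size of this rise is uncertain. MMP3 (stromelysin 1, probe set 7951284) had 5.58, 5.63 and 5.402 in shTP63, against 5.56, 5.21 and 5.32 in shControl. All 6 values lay under the background measure and the groups overlapped. MMP3 differed by 0.17 (SE 0.0921, limma adjusted p = 0.171), with a 95% interval of -0.04 to 0.38, and passed when shControl replicate 1, its highest control array, was left out (0.27, adjusted p = 0.0246). The other 8 members lay above the background measure in both groups.

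The membrane enzyme and the inhibitors rose as well, each by less than the secreted collagenases and the gelatinases. MMP14 (membrane type 1 MMP, probe set 7973336), a collagenase of the cell surface, had 11.30, 11.28 and 11.38 in shTP63, against 10.87, 10.96 and 10.98 in shControl. All 3 shTP63 arrays were higher, and MMP14 rose by 0.38 (SE 0.0498, limma adjusted p = 0.000295), or 1.30-fold. TIMP2 (probe set 8018966), the inhibitor that bridges MMP14 and the MMP2 precursor, had 11.20, 11.25 and 11.25 in shTP63, against 10.62, 10.60 and 10.62 in shControl. The arrays within a group were nearly equal, and TIMP2 rose by 0.62 (SE 0.0412, limma adjusted p = 9.39e-06), or 1.53-fold. TIMP1 (probe set 8167185), an inhibitor of most secreted MMPs that also binds the MMP9 precursor, had 12.67, 12.73 and 12.78 in shTP63, against 12.48, 12.43 and 12.46 in shControl. The gap between the groups was 0.19, the smallest among the 9 genes that rose. TIMP1 rose by 0.27 (SE 0.0466, limma adjusted p = 0.00135), or 1.21-fold. The difference of TIMP1 had a 95% interval of 0.17 to 0.38 and lay below the intervals of MMP1, MMP2, MMP7, MMP9, MMP13 and TIMP2, while it overlapped those of MMP3, MMP10 and MMP14. Centring the arrays on their medians lowered the median difference of all genes to -0.12, and all 9 rises still passed, TIMP1 at 0.17 (adjusted p = 0.0138).

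**Figure D2:**
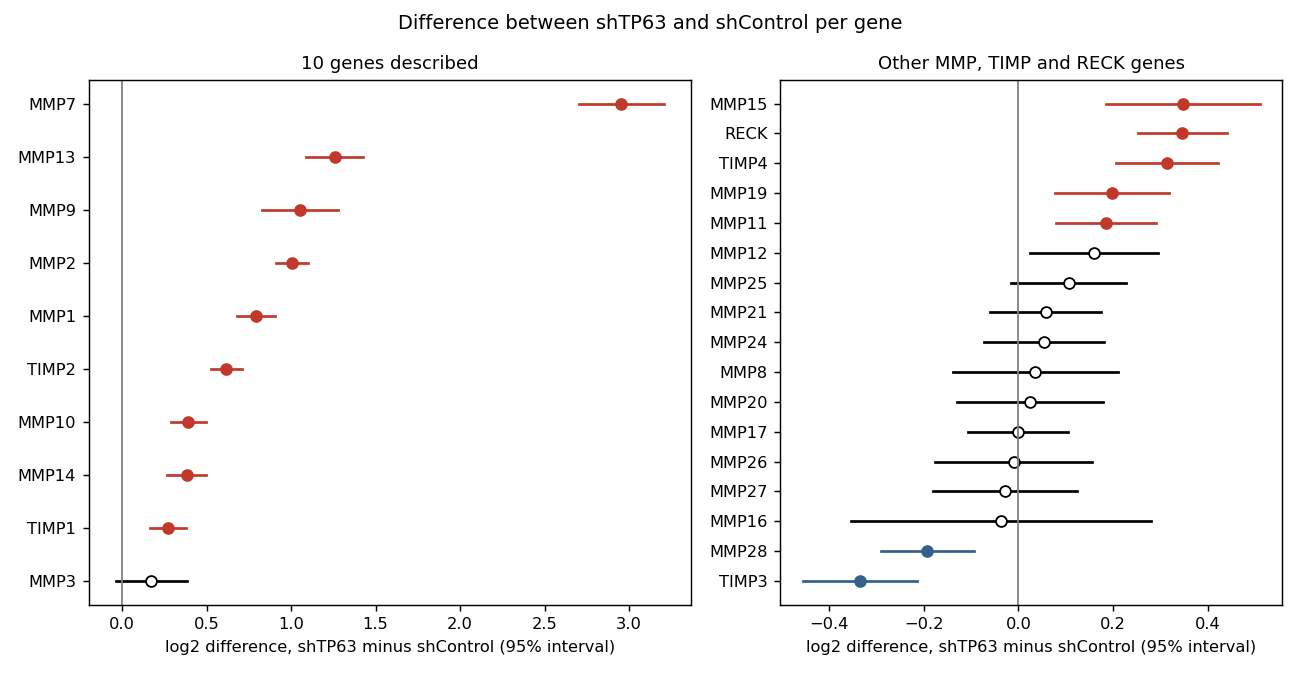
Log2 difference of shTP63 minus shControl for the 10 genes described (left panel) and for 17 other measured MMP, TIMP and RECK genes (right panel, narrower scale), with 95% intervals from limma. Filled red points rose, filled blue points fell and open points did not pass. The 10 genes run from 0.17 for MMP3 to 2.95 for MMP7, while those in the right panel stay between -0.33 and 0.35. Both sets were chosen with earlier results of these data known, so the contrast between the panels is not an independent result.

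Other genes of the family were read from the same arrays. Of 18 further MMP, TIMP and RECK genes 17 were measured, of which 5 rose, 2 fell and 10 did not pass. Of all genes tested 16.4% rose and 25.1% fell. The median difference of the 17 genes was 0.05, and 7 of them lay under the background measure in both groups. TIMP3, the inhibitor that binds the matrix and also blocks ADAM proteases, was the inhibitor that fell: it had 10.31, 10.39 and 10.45 in shTP63, against 10.73, 10.76 and 10.65 in shControl. All 3 shTP63 values were lower, and TIMP3 fell by 0.33 (SE 0.0532, limma adjusted p = 0.000901), so it moved against TIMP1, TIMP2 and TIMP4. The TIMP3 difference was -0.49 with all its probe sets averaged and -0.24 after cyclic loess. TIMP4 rose by 0.31 (SE 0.0476, limma adjusted p = 0.000686), with its shControl level under the background measure, and by 0.20 after another quantile normalization. RECK, a membrane-anchored MMP inhibitor, rose by 0.35 (SE 0.0413, limma adjusted p = 0.000180), to 7.20 in shTP63 against 6.85 in shControl. The shControl level of RECK lay just above the background measure, and its rise was 0.23 after another quantile normalization. MMP15, a membrane-type enzyme like MMP14, rose by 0.35 (SE 0.0715, limma adjusted p = 0.00381). MMP28 (epilysin), made by keratinocytes of intact skin, fell by 0.19 (SE 0.0435, limma adjusted p = 0.00628), a call lost after cyclic loess (-0.09, adjusted p = 0.132), whereas centring gave -0.30. MMP11 rose by 0.19 and MMP19 by 0.20 (limma adjusted p = 0.0109 and 0.0145), and both calls were lost after centring and after another quantile normalization. MMP19 lay under the background measure in both groups and was also lost without shControl replicate 3. Of the 10 genes that did not pass, MMP12, an elastase best known from macrophages and also chosen by its value, came nearest, at 0.16 (SE 0.0595, limma adjusted p = 0.0585).

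**Figure D3:**
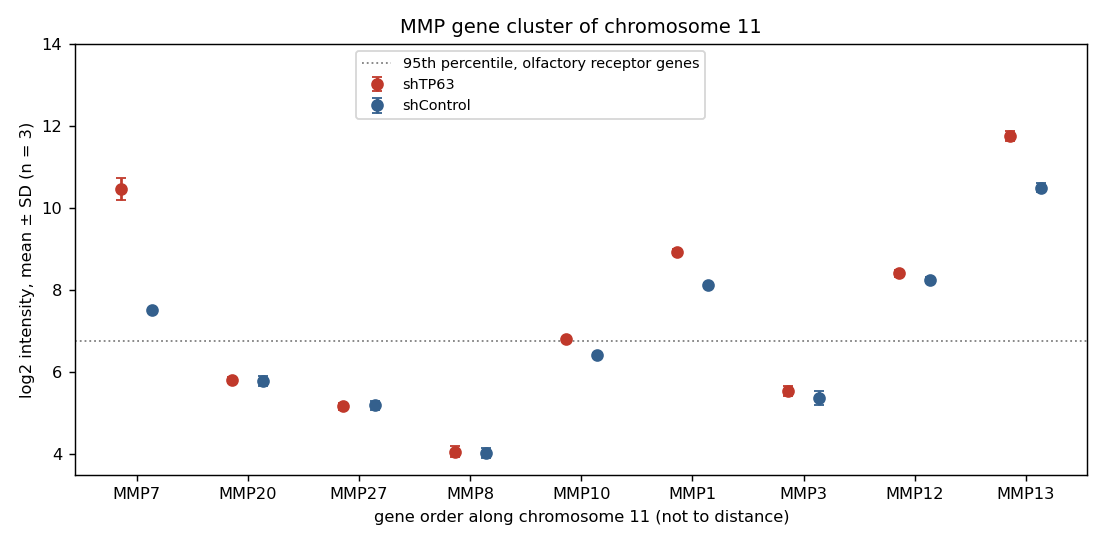
Log2 intensity (mean ± SD, n = 3 arrays) in shTP63 (red) and shControl (blue) of the 9 MMP genes of the chromosome 11 cluster, in gene order and not to distance. The dotted line is the 95th percentile of olfactory receptor genes at 6.76. MMP7 and MMP13 lie at the ends of the cluster, and 4 genes between them, MMP20, MMP27, MMP8 and MMP3, stay under the line in both groups.

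Of the 10 genes, 5 lie in a single cluster of MMP genes. In the RefSeq annotation, MMP7, MMP20, MMP27, MMP8, MMP10, MMP1, MMP3, MMP12 and MMP13 follow each other on chromosome 11 with no other protein-coding gene among them. This grouping was chosen after the values were seen and gets no test. Within the cluster 4 of 9 genes rose, MMP7, MMP10, MMP1 and MMP13, and 5 did not pass, where 16.4% of all genes tested rose. All 4 that rose are members, and the cluster genes that are not members, MMP20, MMP27, MMP8 and MMP12, did not pass. The members were chosen with earlier results of these data known, so this contrast is not an independent result. MMP20 (enamelysin) differed by 0.02, MMP27 by -0.03 and MMP8 (neutrophil collagenase) by 0.04, each with both groups under the background measure. Of 13 measured MMP genes elsewhere in the genome, 6 rose, 1 fell and 6 did not pass. The largest change among these 9 neighbours was at one end of the cluster, in MMP7, and the next at the other end, in MMP13. The AP-1 site was found in the windows of MMP7, MMP10 and MMP20 among the 16 windows at hand for the MMP, TIMP and RECK genes. MMP20, whose AP-1 match starts 112 bases before the start, did not pass.

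Proteases and inhibitors that act upstream of MMPs rose in most cases. Of 15 listed genes of MMP activation and the plasminogen axis, 13 were measured, of which 10 rose and 1 fell. Their median difference was 0.66. Of all genes tested 16.4% rose and 25.1% fell. Like the members, the gene lists were chosen with earlier results of these data known, so their counts are not an independent result. SERPINE2, an inhibitor of plasminogen activators and thrombin, rose by 1.91 (SE 0.0703, limma adjusted p = 5.18e-07). The urokinase receptor PLAUR averaged 10.71 ± 0.0879 in shTP63 and 9.28 ± 0.0732 in shControl (SD, n = 3 each) and rose by 1.43 (SE 0.0593, limma adjusted p = 8.39e-07). The plasminogen activators PLAT and PLAU rose by 0.99 (SE 0.0429) and 0.77 (SE 0.0429), with limma adjusted p of 1.01e-06 and 3.79e-06. FURIN, the convertase that activates the MMP14 precursor and was named after its value was seen, rose by 0.66 (SE 0.0522, limma adjusted p = 2.06e-05). The gene that fell was PLG, plasminogen itself, also named after its value was seen, at -0.17 with both groups under the background measure, a call lost without shTP63 replicate 2 or 3 and without any of the 3 shControl arrays.

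Of 10 genes listed as docking and induction partners of MMPs, 8 rose and 0 fell, beside 16.4% and 25.1% of all genes tested. At an unadjusted p under 0.05 in limma 0 fell as well, and the median difference of the list was 0.30. LCN2, a lipocalin that forms a complex with MMP9, averaged 12.80 ± 0.0559 in shTP63 and 11.04 ± 0.0558 in shControl (SD, n = 3 each) and rose by 1.76 (limma adjusted p = 1.23e-07). ITGAV, the alpha chain of integrins that bind MMP2, rose by 0.82 (SE 0.0418), while its beta partner ITGB3, chosen after its value was seen, differed by -0.03 and lay under the background measure in both groups. ITGB1 rose by 0.57 (SE 0.0443), and THBS1, thrombospondin 1, which binds several MMP precursors, by 0.61 (SE 0.0490). BSG, a surface protein known as an inducer of MMPs, and CD44, a docking site of MMP9, were chosen after their values were seen and rose by 0.17 (SE 0.0425) and 0.18 (SE 0.0405), calls that were both lost after centring on the array median.

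**Figure D4:**
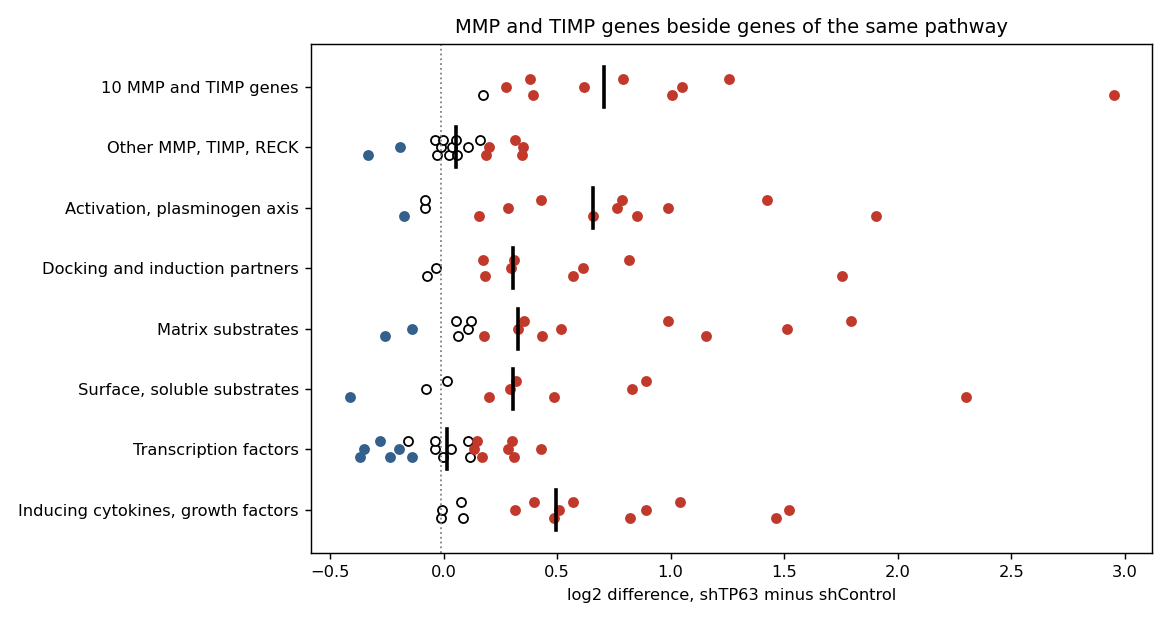
Log2 difference of shTP63 minus shControl for each measured gene of the 10 MMP and TIMP genes and of 7 lists from the same pathway; filled red points rose, filled blue points fell and open points did not pass. Black bars are list medians and the dotted line is the median of all genes tested, -0.01. The inducing cytokines and the activation list lie mostly to the right of the line, whereas the transcription factors lie on both sides of it.

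Genes of MMP substrates were measured on the same arrays. Of 18 matrix substrates 15 were measured, of which 9 rose and 2 fell, beside 16.4% and 25.1% of all genes tested. Their median difference was 0.33. Tenascin C (TNC) and fibronectin (FN1) rose by 1.79 (SE 0.0536) and 1.51 (SE 0.0496). The type IV collagen chains COL4A2 and COL4A1, substrates of the gelatinases, rose by 1.16 (SE 0.0604) and 0.99 (SE 0.0488). The fibrillar collagen genes, substrates of the collagenases and named after their values were seen, had small differences: COL1A1 rose by 0.18 (SE 0.0471), a call lost after centring and without shControl replicate 3, while COL1A2 differed by 0.11 (limma adjusted p = 0.134) and COL3A1 by 0.05 (limma adjusted p = 0.569). The falls, DCN and SPP1, had both groups under the background measure, were likewise chosen by sight of their values, and both calls were lost with the replicate number as a block and without shTP63 replicate 1 or 2 or shControl replicate 1 or 3, SPP1 also without shTP63 replicate 3. Of 12 substrates at the cell surface or in solution 10 were measured, of which 7 rose and 1 fell; their median difference was 0.31. CXCL8, a neutrophil chemokine that MMP9 trims, rose by 2.30 (SE 0.0486), TGFB2 by 0.89 (SE 0.0396) and IGFBP3, which MMPs cleave, by 0.83 (SE 0.0544). Syndecan-1 (SDC1), a surface proteoglycan shed by MMP7, was the exception and averaged 10.26 ± 0.0791 in shTP63 and 10.67 ± 0.00914 in shControl (SD, n = 3 each), so it fell by 0.41 (SE 0.05001, limma adjusted p = 0.000195). E-cadherin (CDH1), chosen after its value was seen, rose by 0.29 (SE 0.0420), and by 0.19 after centring on the array median.

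Factors that act on MMP promoters went both ways, as all genes tested did, whereas cytokines that induce MMPs were higher in most cases. Of 20 transcription factors 7 rose and 6 fell, where 16.4% of all genes tested rose and 25.1% fell. The median difference of the factors was 0.02, against -0.01 for all genes tested. JUN, an AP-1 subunit, rose by 0.43 (SE 0.0424) and FOSL1, its partner in migrating keratinocytes, by 0.31 (SE 0.0470), or 0.20 after centring. JUND, another AP-1 subunit, fell by 0.37 (SE 0.0551), and ETS1, which acts on several MMP promoters, fell by 0.35 (SE 0.0489). Limma's adjusted p for these 4 genes ran between 6.51e-05 and 0.000673. RUNX2, a known activator of MMP13 in bone, was named after its value was seen and fell by 0.28 (SE 0.0476, limma adjusted p = 0.00132). Only 4 of the factors rose without shTP63 replicate 3, without shControl replicate 1 and without shControl replicate 2, and 3 after centring on the array median. Of 15 cytokines and growth factors 14 were measured, of which 10 rose and 0 fell, with 0 falls also at an unadjusted p under 0.05 in limma, and the median difference was 0.50. IL6 rose by 1.52 (SE 0.0490), IL1A by 1.46 (SE 0.0502) and LIF by 0.82 (SE 0.0691), and TGFB2 is a member of this list as well. TNF, named after its value was seen, averaged 7.999 ± 0.211 in shTP63 and 6.96 ± 0.0425 in shControl (SD, n = 3 each) and rose by 1.04 (SE 0.0923).

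Markers of cell types were read beside the MMPs, since fibroblasts and leukocytes make several of them. Of 10 keratinocyte markers 6 were measured, all above the background measure. Of these 4 fell and 0 rose, beside 25.1% and 16.4% of all genes tested. At an unadjusted p under 0.05 in limma 0 rose as well. Their summed level, the log2 of the summed intensities on an array, was 15.24 to 15.26 in shTP63 and 15.55 to 15.61 in shControl. Of 10 fibroblast markers 2 rose, COL1A1 and FAP, and 1 fell, DCN. Under the background measure in both groups lay 5, namely PDGFRA, POSTN, THY1, DCN and FAP. COL1A1 (8.58 in shTP63 and 8.40 in shControl), LUM (8.10 and 7.92), COL1A2, COL3A1 and PDGFRB lay above it in both groups. The summed level of the fibroblast markers was 10.36 to 10.45 in shTP63 and 10.28 to 10.33 in shControl. Of 7 measured macrophage and neutrophil markers CD68 rose, and CD68 and CSF1R lay above the background measure in both groups. The other 5, among them PTPRC and LYZ, lay under it in both groups. The summed level of the 7 markers was 10.24 to 10.34 in shTP63 and 9.78 to 9.90 in shControl. In that sum CD68 was the only marker that passed, with means of 9.74 in shTP63 and 8.99 in shControl. The other 6 did not pass, and CSF1R was 7.12 and 7.11. Of 6 endothelial markers CLDN5 rose, VWF fell, and 4, VWF among them, lay under the background measure in both groups. CDH5 (9.57 in shTP63 and 9.50 in shControl) and CLDN5 (8.16 and 7.97) lay above it. The summed level of the endothelial markers was 10.28 to 10.35 in shTP63 and 10.20 to 10.26 in shControl. The part of any of these in the MMP and TIMP differences was not tested. TP63 itself was not analysed here, so every direction rests on the sample labels. Arrays of a group correlated at r of 0.996 to 0.998 over all probe sets and arrays of different groups at 0.988 to 0.991, with no array apart from its group.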

How the data were processed

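Total RNA of 6 HaCaT samples was labelled with biotin and read on arrays in a single colour, per the labels' protocols. The deposited values are intensities on a linear scale that the authors made with RMA in R 2.15.1, per the submitters' processing notes. Log2 was taken here of all 32321 probe sets. Platform annotation gave 19158 probe sets 1 gene, 1388 several and left 11775 unlisted; of the first, 19128 matched RefSeq by Entrez identifier. Of several probe sets of a gene that with the highest mean was used.

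The test of shTP63 against shControl was limma (version 3.58.1, R 4.3.3), fitted two-sided and without covariates; p-values of 18404 genes were adjusted by Benjamini-Hochberg, and the steps were tested on simulated data. Members and lists were chosen with earlier results of these data known. The text names every member, every other MMP, TIMP or RECK gene that passed, and in each further list the 4 passing genes with the smallest adjusted p; further genes are marked. Deviations of same-numbered arrays from their group means correlated at r of -0.15, -0.04 and 0.13. Such weak correlations cannot show whether the numbers pair samples. The number of arrays limits the precision; the median SE was 0.0531. Some listed genes had no probe set of their own and are not used here, and protein sequences were not used. Alternatives were the replicate block, other scalings, a filter on the dimmest 40% of genes, averaged probe sets, a trended robust prior and each array left out.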

Additional observations from a re-analysis of the deposited data

How the results depend on the processing

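The 9 rises among the 10 MMP and TIMP genes passed under every alternative run in which the gene was tested, with the replicate block giving 9 rises again and adjusted p up to 0.00623; with the dimmest 40% of genes left out, MMP3 and MMP10 were not tested and 8 rose. Their differences ranged from 2.82 to 3.08 for MMP7 and from 0.17 to 0.33 for TIMP1. MMP3 ranged from 0.10 to 0.27 when single arrays were left out and passed only without shControl replicate 1. The lists moved more. Under the replicate block, matrix substrates that fell numbered 0 in place of 2, and no other count changed by over 1.5 times. Of the other MMP, TIMP and RECK genes 3 rose, in place of 5, after another quantile normalization, after centring and without the dimmest genes, and 1 fell, in place of 2, after cyclic loess. In the activation list, in place of 1 fall, 2 were called after quantile normalization, 3 after centring and 0 without the dimmest genes or with a trended robust prior, and 0 to 1 with single arrays left out. Centring gave 2 falls among docking partners, in place of 0, 2 among surface substrates, in place of 1, and 3 rises among transcription factors, in place of 7; cyclic loess gave 3 falls among the factors, in place of 6. Quantile normalization gave 1 fall among cytokines, in place of 0. Matrix substrates that fell numbered 0 without the dimmest genes, 1 with the trended robust prior and 0 to 2 with single arrays left out. With single arrays left out, 4 to 7 factors rose. RECK, TIMP4, MMP19, LIF, TNF, PLG, DCN and SPP1 were among the dimmest genes and so were not tested without them. Of the cytokines and growth factors 8 rose, in place of 10, in that setting. The cause of the changes under the other settings was not tested. Signal over background limits MMP3, MMP10 and the other dim genes.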
